A study of Mus musculus with 15 samples.

Results

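The genes described here encode the Bcl2 family, the proteins that decide at the mitochondrial outer membrane whether a cell enters apoptosis. The members were taken from a list of 10 genes: Pmaip1, Bbc3, Bcl2l11, Bmf and Bid, Bax and Bak1, and Mcl1, Bcl2l1 and Bcl2. Of these 10 genes, 9 had a probe set that the platform annotation pairs with exactly 1 gene symbol, among 19937 genes tested in all. Each of the 9 had 1 such probe set. Bax was not analysed here.

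The family works by binding within itself. Survival members such as Mcl1, Bcl2l1 (Bcl-xL) and Bcl2 hold the effectors Bax and Bak1 and the BH3-only members in check. BH3-only proteins, among them Bcl2l11 (Bim), Pmaip1 (Noxa), Bmf, Bbc3 (Puma) and Bid, either occupy the survival members or engage the effectors directly, and the effectors then open pores through which cytochrome c leaves and caspases are activated. Mouse embryonic stem (ES) cells are known to be primed for mitochondrial apoptosis. ERK signalling is known in other cells to mark the Bim protein for degradation and to lower its transcript, and FoxO factors are known to activate the genes of Bim and Puma.

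RNA of ES cells was measured on 15 arrays, 3 for each of 5 groups, to follow the response to an inhibitor of GSK3 and an inhibitor of MEK. All groups were of 1 line, adapted to culture in both inhibitors (2i), with a biotin and 3xFLAG tag knocked into Ctnnb1, the beta-catenin gene, and with the biotin ligase BirA. The 2iLIF group was in long-term culture with the GSK3 inhibitor CHIR99021 (3 µM), the MEK inhibitor PD0325901 (1 µM) and the cytokine LIF. For 24 h before RNA extraction the 2i group had both inhibitors without LIF, the CHIR group CHIR99021 alone, the PD03 group PD0325901 alone, and the DMSO group none of these agents. The DMSO group is therefore a withdrawal of all 3 agents from cells adapted to them, not a culture that never had them. The labels do not say whether the replicates of a group were separate cultures, and the p-values given here cover the spread among these arrays alone, part or all of which may be technical.

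Values are the deposited log2 RMA signals, on which a difference of 1 is a 2-fold difference. Array medians lay between 6.98 and 7.06. A gene was called where limma gave it a p under 0.05 after Benjamini-Hochberg adjustment over the 19937 genes. Rose and fell refer to the group named first relative to the other, at a single sampling time. The 6 ES cell markers read 9.73 to 13.17. They were not equally steady: Pou5f1 read 12.45 to 12.56 on all arrays, while the group means of Nanog ran from 11.74 in DMSO to 12.72 in 2iLIF and those of Zfp42 from 9.82 to 10.66. The 7 fibroblast or feeder markers read 4.74 to 7.87, with a mean over the list of 6.50 to 6.75 in every array. In RNA from whole cultures, fewer cells of a type and less RNA per cell cannot be told apart.

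With GSK3 inhibition (CHIR minus DMSO), 5 of the 9 members passed, against 20.8% of all genes tested: Bcl2l11, Bmf, Bbc3 and Mcl1 fell and Bid rose. Without CHIR replicate 1 the calls numbered 3, and with each array centred on its median also 3, Bbc3 and Mcl1 being lost in both. With MEK inhibition (PD03 minus DMSO), Pmaip1 and Bcl2l11 fell and no member rose, so 2 of 9 passed against 16.8% of all genes, a share near that background. With both inhibitors (2i minus DMSO), Bcl2l11, Pmaip1, Bmf and Mcl1 fell and Bid rose, 5 of 9 against 25.5%. With LIF as well (2iLIF minus DMSO), Bcl2l11, Pmaip1, Bmf, Bbc3 and Mcl1 fell and Bid rose, 6 of 9 against 34.7%. The median log2 difference of the members was -0.12 in CHIR minus DMSO, -0.02 in PD03 minus DMSO, -0.09 in 2i minus DMSO and -0.16 in 2iLIF minus DMSO. The medians over all genes in the same comparisons were -0.01, 0.00, 0.02 and 0.01. These 4 comparisons share the DMSO arrays. Bak1 and Bcl2 passed in none of the 9 comparisons made here.

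**Figure D1:**
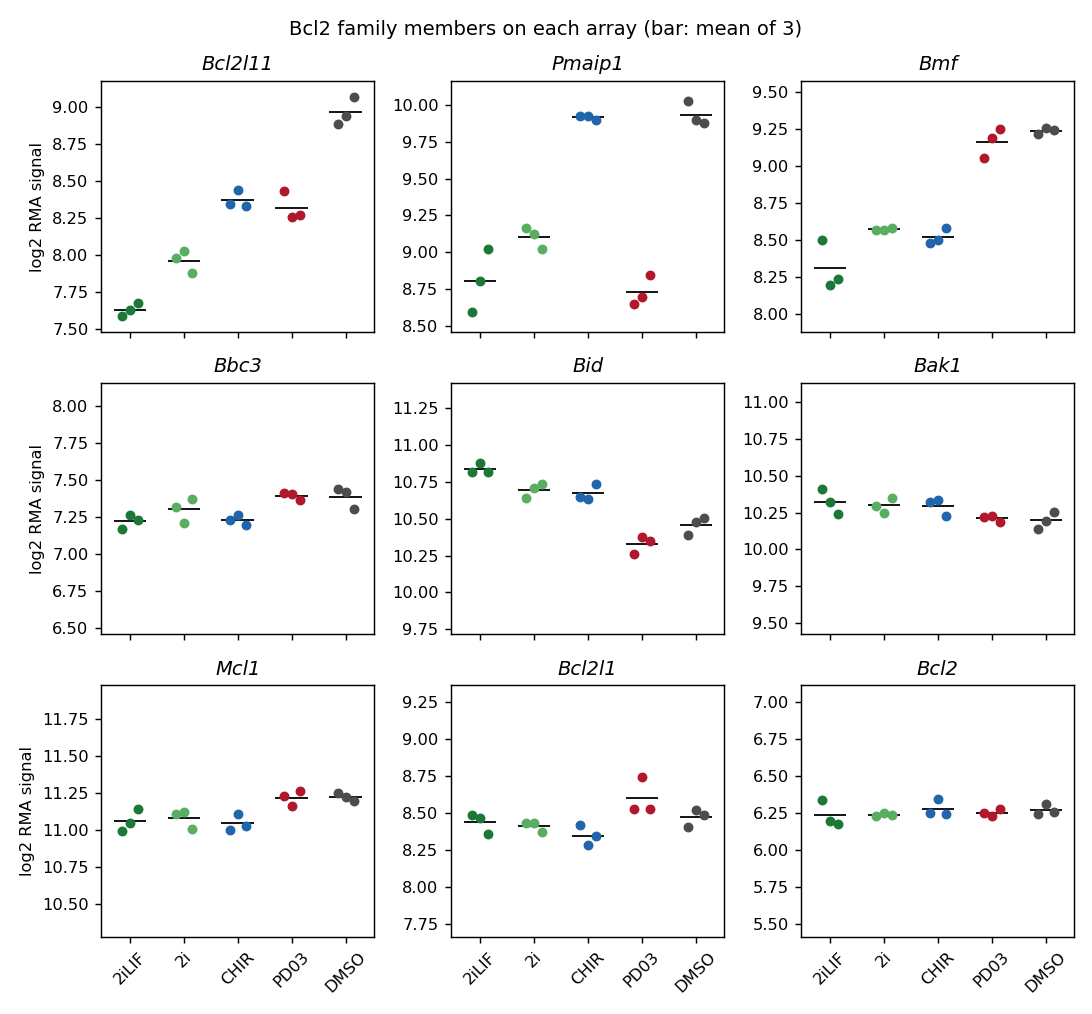
Log2 RMA signal of the 9 measured members on each of 15 arrays, by group. Each point is 1 array and each bar the mean of 3. All panels span the same number of log2 units. Bcl2l11 is highest on the DMSO arrays and lowest on the 2iLIF arrays, Pmaip1 is low on every array with PD0325901, and Bmf is low on every array with CHIR99021.

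Bcl2l11 encodes Bim, a BH3-only protein that binds all the main survival members and can also engage the effectors. It had the widest range of group means of the 9 members, 1.34 on the log2 scale. The DMSO arrays read 8.88, 8.94 and 9.07, the CHIR arrays 8.34, 8.44 and 8.33, and the PD03 arrays 8.43, 8.25 and 8.27. The 2i arrays read 7.98, 8.02 and 7.88 and the 2iLIF arrays 7.58, 7.63 and 7.68. The order from high to low was thus DMSO, then CHIR and PD03 with overlapping arrays, then 2i, then 2iLIF, and apart from CHIR and PD03 no neighbouring groups overlapped.

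Bcl2l11 was lower with each inhibitor alone. It fell by 0.59 ± 0.06 (SE) in CHIR minus DMSO (limma adjusted p = 2.25e-06) and by 0.65 ± 0.06 in PD03 minus DMSO (adjusted p = 9.13e-07). The difference between the responses, CHIR minus PD03, was 0.06 ± 0.06 (adjusted p = 0.554), with a 95% interval from -0.07 to 0.18 (intervals are limma's for each gene alone, without adjustment). The comparison of the inhibitor groups with each other was added after the values were seen.

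With both inhibitors Bcl2l11 fell further, by 1.01 ± 0.06 in 2i minus DMSO, which is 2.01-fold (adjusted p = 3.24e-09). It was lower in 2i than with CHIR99021 alone by 0.41 (log2 difference -0.41, adjusted p = 2.32e-04) and than with PD0325901 alone (log2 difference -0.36, adjusted p = 3.94e-04). The interaction of the inhibitors, (2i minus PD03) minus (CHIR minus DMSO), was 0.24 ± 0.08 and did not pass (unadjusted p = 0.0124, adjusted p = 0.216). The groups with and without LIF differed further: Bcl2l11 fell by 0.33 ± 0.06 in 2iLIF minus 2i (adjusted p = 0.00105). From DMSO to 2iLIF the difference was -1.34 ± 0.06, a 2.52-fold fall (adjusted p = 4.67e-11). The 2iLIF values of Bcl2l11 lie within the range of the fibroblast marker reads, so part of that signal may be background. The probe set reads the gene as a whole, so the transcript isoforms of Bim were not told apart.

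The mean signal of the ES cell markers ran the opposite way to Bcl2l11: its per-array values were 11.45 to 11.59 in DMSO, 11.80 to 11.83 in CHIR, 11.88 to 11.92 in PD03, 11.96 to 11.97 in 2i and 12.03 to 12.06 in 2iLIF. Not every marker had this order: Pou5f1 was highest in DMSO (12.54, against 12.51 in 2iLIF), and Dppa5a was lower in CHIR (12.90) than in DMSO (12.97). The part of these marker differences in the Bcl2l11 result was not tested. Over the 15 arrays the genes most like Bcl2l11 were Acsl4 (Pearson r = 0.992), Fzd7 (r = 0.990) and Satb1 (r = 0.987). These correlations describe the same 15 arrays, whose groups set most of the spread.

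The upstream windows of Bcl2l11 and Bmf are shown because these BH3-only genes had different responses to the inhibitors and each has an annotated start whose window lies outside its annotated gene span. Sequences are the 250 bases before a RefSeq transcription start (GRCm38.p6), 5′ to 3′ on the strand of the gene. Capitals mark a match to 1 of 5 strings searched on both strands: the forkhead string GTAAACA, the ETS string CCGGAA, the STAT string TTCNNNGAA, and the TCF/LEF strings CTTTGAT and CTTTGAA.
Bcl2l11, chr2:128125788-128126037, plus strand: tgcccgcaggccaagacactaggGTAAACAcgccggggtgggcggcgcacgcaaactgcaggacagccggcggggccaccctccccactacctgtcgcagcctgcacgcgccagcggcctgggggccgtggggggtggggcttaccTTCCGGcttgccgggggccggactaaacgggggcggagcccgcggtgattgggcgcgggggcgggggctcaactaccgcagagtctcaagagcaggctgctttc
Bmf, chr2:118549687-118549936, minus strand: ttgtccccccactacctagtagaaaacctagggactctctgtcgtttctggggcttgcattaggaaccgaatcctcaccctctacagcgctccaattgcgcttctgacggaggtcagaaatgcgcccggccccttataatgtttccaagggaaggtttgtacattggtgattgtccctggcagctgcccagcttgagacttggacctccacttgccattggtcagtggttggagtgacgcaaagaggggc
The Bcl2l11 window holds the forkhead string at -227 to -221 on the strand of the gene and the ETS string at -104 to -99 on the other strand. The Bmf window holds none of the 5 strings. Of all 32851 promoter windows of the same length, 3.17% hold the forkhead string, 12% the ETS string, 7.02% the STAT string and 7.48% either TCF/LEF string. Among the other windows of the members matched, a Bbc3 window holds the forkhead string, Mcl1 holds the ETS string at 2 positions and Bid holds it once. No STAT or TCF/LEF string was found in the 15 windows of the 8 members matched. Pmaip1 was not searched. A match describes letters, not binding, and the arrays did not measure binding.

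Pmaip1 encodes Noxa, a BH3-only protein that binds mainly Mcl1. Its DMSO arrays read 10.03, 9.90 and 9.87 and its CHIR arrays 9.93, 9.93 and 9.89. The PD03 arrays read 8.65, 8.70 and 8.85, the 2i arrays 9.17, 9.12 and 9.02, and the 2iLIF arrays 8.59, 8.80 and 9.03. All 9 arrays with PD0325901 (8.59 to 9.17) thus lay below all 6 without it (9.87 to 10.03). Within each of these sets neighbouring groups overlapped. Such a separation by PD0325901 was found for this 1 member of 9 and for 4.85% of all genes.

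With MEK inhibition alone Pmaip1 fell by 1.20 ± 0.08, or 2.30-fold (limma adjusted p = 4.70e-08). With GSK3 inhibition alone the difference was -0.02, with a 95% interval from -0.19 to 0.16. The responses differed from each other: CHIR minus PD03 was 1.18 ± 0.08 (adjusted p = 3.44e-08). Adding PD0325901 to CHIR99021 lowered Pmaip1 by 0.81 on the log2 scale (2i minus CHIR, log2 difference -0.81, adjusted p = 9.33e-06). In the other direction, Pmaip1 was higher in 2i than in PD03 by 0.37 ± 0.08 (adjusted p = 0.00421). The interaction was 0.39 ± 0.12 and did not pass (unadjusted p = 0.00452, adjusted p = 0.122). It passed with only the 4 groups of that comparison in the fit (adjusted p = 0.0234), without 2iLIF replicate 1 (0.0384) and without 2iLIF replicate 3 (0.0377).

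Between 2i and 2iLIF the Pmaip1 arrays overlapped. The difference was -0.30 ± 0.08 (adjusted p = 0.0270). The call was lost without 2iLIF replicate 1 (log2 difference -0.19, adjusted p = 0.110), without 2iLIF replicate 2 (adjusted p = 0.0766), without 2i replicate 1 (0.103) and without 2i replicate 2 (0.0804). Against DMSO, Pmaip1 fell by 0.83 ± 0.08 in 2i (adjusted p = 1.51e-06) and by 1.12 in 2iLIF (adjusted p = 2.09e-08). The genes most like Pmaip1 over the 15 arrays were Pdk1 (Pearson r = 0.986), a kinase that inhibits pyruvate dehydrogenase, Txnrd1 (r = 0.972), a thioredoxin reductase, and Spred1 (r = 0.971), an inhibitor of the Ras-ERK pathway.

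Bmf encodes a BH3-only protein that binds survival members and is known to associate with dynein light chain. Its DMSO arrays read 9.22, 9.26 and 9.24 and its PD03 arrays 9.05, 9.19 and 9.25. The CHIR arrays read 8.48, 8.50 and 8.58, the 2i arrays 8.57, 8.56 and 8.58, and the 2iLIF arrays 8.50, 8.19 and 8.23. All 9 arrays with CHIR99021 (8.19 to 8.58) lay below all 6 without it (9.05 to 9.26), and within each set neighbouring groups overlapped. Bmf, Mcl1 and Bid, 3 of 9 members, were separated in this way by CHIR99021, as were 10.3% of all genes.

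Bmf fell by 0.72 ± 0.07 in CHIR minus DMSO (limma adjusted p = 1.00e-06). In PD03 minus DMSO the difference was -0.07 (adjusted p = 0.534), with a 95% interval from -0.22 to 0.07. The difference between these responses was -0.65 (adjusted p = 2.41e-06). In 2i, Bmf was lower than in DMSO (log2 difference -0.67, adjusted p = 1.32e-06) and lower than in PD03 (-0.59, adjusted p = 9.97e-06). It fell by 0.93 in 2iLIF minus DMSO, 1.91-fold (adjusted p = 1.29e-08). The mean of the neural progenitor markers was highest in PD03 (8.43 to 8.49 per array), then DMSO (7.99 to 8.03), and lower in the groups with CHIR99021 (7.63 to 7.94). Of these markers, Pax6 alone had that order in its group means. Sox1 was highest in DMSO (8.39, against 8.24 in PD03). Nes and Tubb3 were lower in DMSO (7.41 and 8.47) than in 2i (7.50 and 8.99) and 2iLIF (7.53 and 9.01). The part of these markers in the Bmf result was not tested.

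Bmf also fell by 0.26 ± 0.07 in 2iLIF minus 2i (adjusted p = 0.0143), where 3 of 9 members passed against 12.2% of all genes. Without 2iLIF replicate 2 the count was 1, Bcl2l11. The Bmf call was lost without 2iLIF replicate 2 (adjusted p = 0.0829) and without 2iLIF replicate 3 (0.0697). The mean of the trophoblast markers was higher in 2iLIF (7.62 to 7.68 per array) than in 2i (7.36 to 7.38). By group means, Krt8 (10.41 in 2iLIF, 9.85 in 2i) and Eomes (9.59 and 8.66) were higher in 2iLIF. Cdx2 (5.91 and 5.97), Elf5 (5.63 and 5.63) and Hand1 (6.68 and 6.72) were slightly lower there. The part of these markers in the differences between 2iLIF and 2i was not tested. The genes most like Bmf over the 15 arrays were Igdcc4 (Pearson r = 0.979), Kndc1 (r = 0.975) and Mettl27 (r = 0.970).

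**Figure D2:**
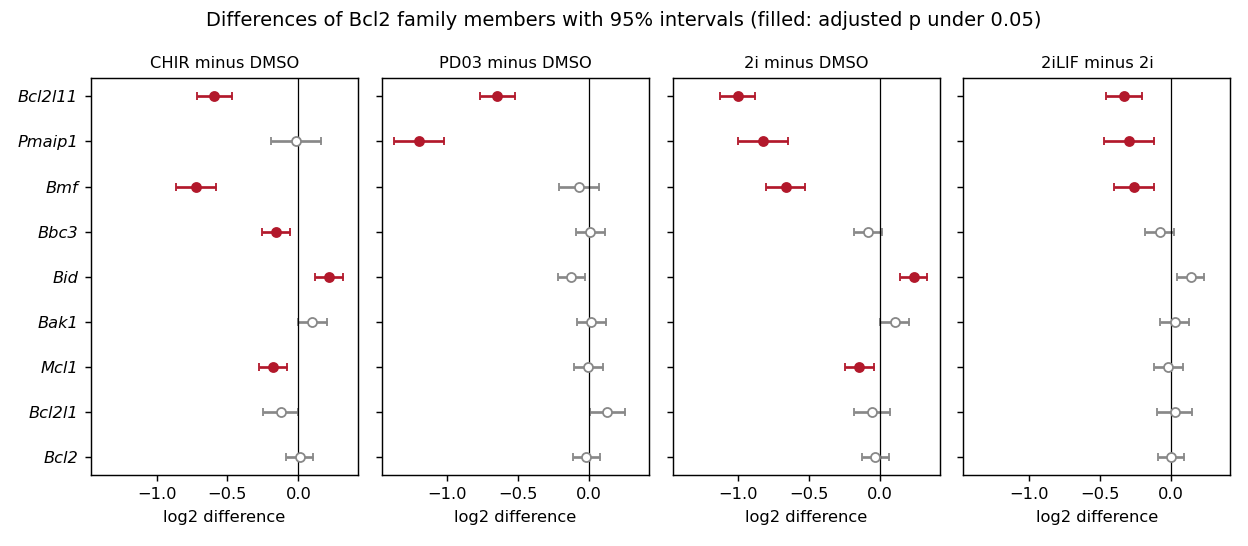
Log2 difference of each measured member in 4 comparisons, with 95% intervals from limma. Filled points passed at an adjusted p under 0.05. Bcl2l11 lies left of 0 in every panel, Pmaip1 lies near 0 with CHIR99021 alone, and Bmf lies near 0 with PD0325901 alone.

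Bid differs from the other BH3-only members in that caspase-8 cleaves it, which links death receptors to mitochondria. It was the member that rose against DMSO while others fell. The DMSO arrays read 10.39, 10.48 and 10.50, the PD03 arrays 10.26, 10.38 and 10.35, and the CHIR arrays 10.65, 10.63 and 10.73. The 2i arrays read 10.64, 10.71 and 10.73 and the 2iLIF arrays 10.81, 10.87 and 10.81. All arrays with CHIR99021 (10.63 to 10.87) lay above all without it (10.26 to 10.50).

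Bid rose by 0.22 ± 0.05 in CHIR minus DMSO (limma adjusted p = 0.00254), by 0.24 in 2i minus DMSO (adjusted p = 8.21e-04) and by 0.38 in 2iLIF minus DMSO (adjusted p = 5.20e-06). In PD03 minus DMSO it read -0.13 (adjusted p = 0.0690), a difference that passed without DMSO replicate 1 (adjusted p = 0.0343). CHIR minus PD03 was 0.34 (adjusted p = 3.20e-05). The interaction was 0.15 and did not pass (unadjusted p = 0.0339, adjusted p = 0.343). Bid, Pmaip1 and Bcl2l11 were the 3 members with an unadjusted interaction p under 0.05. No member passed after adjustment, against 2.04% of all genes. The 3 2iLIF arrays of Bid lay above the other 12, and those of Bcl2l11 below them. These 2 of 9 members compare with 13.1% of all genes. For Bid the difference between 2iLIF and 2i was 0.14 (adjusted p = 0.0578), and it passed without DMSO replicate 1 (adjusted p = 0.0471).

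Bbc3 encodes Puma, a BH3-only protein and a known target of p53 and FoxO3. The DMSO arrays read 7.44, 7.42 and 7.30, the PD03 arrays 7.41, 7.40 and 7.37, the CHIR arrays 7.23, 7.26 and 7.19, the 2i arrays 7.32, 7.21 and 7.37, and the 2iLIF arrays 7.17, 7.26 and 7.23. All neighbours in the order of group means overlapped. Bbc3 fell by 0.16 ± 0.05 in CHIR minus DMSO (limma adjusted p = 0.0249) and by 0.17 in 2iLIF minus DMSO (adjusted p = 0.0110). The first call was lost without CHIR replicate 1 (adjusted p = 0.0569), CHIR replicate 3 (0.0955), DMSO replicate 1 (0.102) or DMSO replicate 2 (0.0911), and the second without DMSO replicate 1 (0.0535). The first was also lost with quantile normalization over named genes (0.102), with median centring (0.0935) and with only the groups compared in the fit (0.0606). The Bbc3 values lie within the range of the fibroblast marker reads, so part of this signal may be background.

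Bak1 encodes an effector that sits in the mitochondrial outer membrane. Its arrays read between 10.14 and 10.41, and its group means differed by at most 0.13. It passed in no comparison. In 2iLIF minus DMSO its difference was 0.13, and that passed without 2iLIF replicate 3 (limma adjusted p = 0.0150), without CHIR replicate 3 (0.0477) and without DMSO replicate 3 (0.0315). With each array centred on its median, Bak1 passed in 2iLIF minus DMSO (0.0165) and in CHIR minus PD03 (0.0471).

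Mcl1 encodes a survival protein of short half-life, required in the early mouse embryo and the main partner of Noxa. The DMSO arrays read 11.25, 11.22 and 11.20 and the PD03 arrays 11.23, 11.16 and 11.26. The CHIR arrays read 11.00, 11.11 and 11.03, the 2i arrays 11.11, 11.12 and 11.00, and the 2iLIF arrays 10.99, 11.04 and 11.14. The 9 arrays with CHIR99021 lay between 10.99 and 11.14 and the 6 without it between 11.16 and 11.26, with no overlap.

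The differences of Mcl1 were small and its calls rested on single arrays and on the scaling. It fell by 0.18 ± 0.05 in CHIR minus DMSO (limma adjusted p = 0.0128), a call lost without CHIR replicate 1 (0.0554). It fell by 0.15 in 2i minus DMSO (adjusted p = 0.0329), lost without 2i replicate 3 (0.152), DMSO replicate 1 (0.101) or DMSO replicate 2 (0.0681). It fell by 0.16 in 2iLIF minus DMSO (adjusted p = 0.0125), lost without 2iLIF replicate 1 (0.0616). In PD03 minus DMSO the difference was -0.01. In 2i minus PD03 it was -0.14 (adjusted p = 0.0523), which passed without 2iLIF replicate 1 (0.0444), 2iLIF replicate 3 (0.0379), CHIR replicate 2 (0.0474) or PD03 replicate 2 (0.0447). CHIR minus PD03 was -0.17 (adjusted p = 0.0136), lost without CHIR replicate 1 (0.0586) or PD03 replicate 3 (0.0626). With each array centred on its median, Mcl1 passed against DMSO in no group (0.0730 for CHIR, 0.0641 for 2i, 0.0775 for 2iLIF). The call in CHIR minus PD03 was lost with that centring as well (0.123).

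Bcl2l1 encodes Bcl-xL, a survival protein. The PD03 arrays read 8.53, 8.74 and 8.53, the DMSO arrays 8.41, 8.52 and 8.48, and the CHIR arrays 8.42, 8.28 and 8.34. The 2i arrays read 8.44, 8.43 and 8.37 and the 2iLIF arrays 8.49, 8.47 and 8.36. The PD03 arrays were the highest 3 of the 15. Bcl2l1 passed against DMSO in no group, but CHIR and PD03 differed, by -0.25 ± 0.06 (limma adjusted p = 0.00427). In 2i minus PD03 it fell by 0.19 (adjusted p = 0.0346), and that call was lost without PD03 replicate 2 (log2 difference -0.11, adjusted p = 0.184) or without any 1 of the 2i replicates (0.0610 to 0.119). Bcl2 read 6.18 to 6.35 on all arrays, with group means that differed by at most 0.04, and it lay within the range of the fibroblast marker reads.

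Set against each other, CHIR99021 and PD0325901 differed for 6 of the 9 members (CHIR minus PD03, adjusted p under 0.05), against 25.8% of all genes. Pmaip1 and Bid were higher with CHIR99021, and Bmf, Bbc3, Mcl1 and Bcl2l1 were lower. The Bbc3 call there (log2 difference -0.17, limma adjusted p = 0.0156) was lost without CHIR replicate 3 (0.0652), PD03 replicate 1 (0.0525) or PD03 replicate 2 (0.0512). Bcl2l11, Bak1 and Bcl2 did not pass. With each array centred on its median, the calls of Bbc3 (adjusted p = 0.105) and Mcl1 (0.123) were lost and Bak1 passed as higher (0.0471). With quantile normalization over named genes the Bbc3 call was lost as well (0.141). Both inhibitors against PD0325901 alone (2i minus PD03) gave 5 calls of 9, against 19.5% of all genes: Pmaip1 and Bid rose, and Bcl2l11, Bmf and Bcl2l1 fell. Both inhibitors against CHIR99021 alone (2i minus CHIR) gave 2 calls, Pmaip1 and Bcl2l11, both lower, against 9.46%. Of the 9 members, only Bcl2l11 was called lower with each inhibitor alone than in DMSO, and lower with both than with either. In each case the group without an inhibitor had had it withdrawn for 24 h.

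FoxO factors are known to drive Bim and Puma, and a list of 10 FoxO genes and reported targets was followed beside them. In CHIR minus DMSO 8 of the 10 fell and none rose, where 20.8% of all genes were called, with a median log2 difference of -0.28 against -0.01 over all genes. The lowest were Trib1 (-0.76 ± 0.07), a pseudokinase gene, Klf6 (-0.57 ± 0.05) and Cited2 (-0.35 ± 0.06). Irs2 was 1 of the 8, and its call was lost under most settings tried. Among these were centring each array on its median (limma adjusted p = 0.076) and leaving out CHIR replicate 3 (0.192). In PD03 minus DMSO 3 rose (Klf6 by 0.67, Cited2 by 0.55 and Foxo3 by 0.21) and 3 fell (Trib1 by 0.36, Irs2 by 0.23 and Foxo1 by 0.22), where 16.8% of all genes were called. The Irs2 call there was lost without DMSO replicate 1 (adjusted p = 0.0684). In 2iLIF minus 2i 5 of the 10 fell and none rose, with Foxo1 at -0.56 and Sesn3, which encodes a sestrin, at -0.41, where 12.2% of all genes were called. In 2i minus DMSO 5 fell and none rose, where 25.5% of all genes were called. That count was 3 without 2i replicate 1, with arrays centred on their median or with only the groups compared in the fit.

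**Figure D3:**
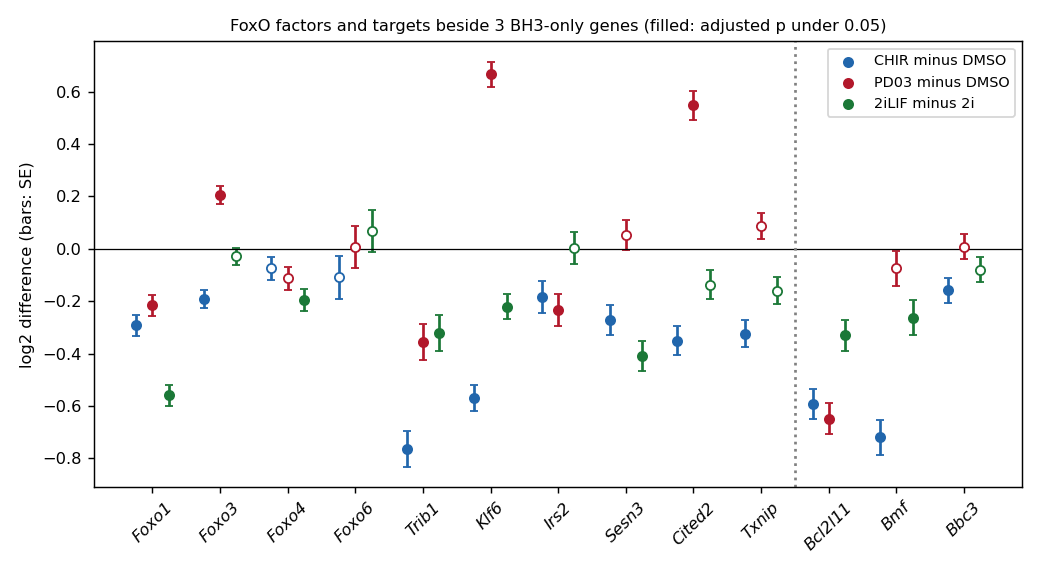
Log2 differences of 10 FoxO genes and reported targets (left of the dotted line) and of Bcl2l11, Bmf and Bbc3 (right) in 3 comparisons, with standard errors from limma. Filled points passed at an adjusted p under 0.05. Foxo1, Trib1, Irs2 and Bcl2l11 lie below 0 with either inhibitor alone, while Foxo3, Klf6 and Cited2 lie below 0 with CHIR99021 and above 0 with PD0325901.

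Pmaip1 and Bbc3 are known p53 targets, and 15 further p53 pathway genes were measured. In CHIR minus DMSO 5 fell and none rose, where 20.8% of all genes were called, among them Btg2 (-0.50), an inhibitor of proliferation, and Gadd45a (-0.40), a stress-response gene. With quantile normalization over named genes 8 fell. In PD03 minus DMSO, where Pmaip1 fell 2.30-fold and 16.8% of all genes were called, 2 of the 15 rose and 3 fell, and Gadd45a was at -0.85. In 2i minus DMSO, where 25.5% of all genes were called, 3 rose and 4 fell, with Gadd45a at -0.91, and 1 rose without 2i replicate 1 or without 2i replicate 2. In 2iLIF minus 2i, where 12.2% of all genes were called, 4 rose and 3 fell, with Perp, a p53 target in cell junctions, at 0.73 and Btg2 at 0.50. In that comparison 1 fell without 2i replicate 1, 2i replicate 3 or 2iLIF replicate 3, and with centring or all probe sets. The group means of Perp lie within the range of the fibroblast marker reads, so part of its signal may be background. The integrated stress response is also known to raise Noxa and Bim. Of its 6 listed genes, 3 fell in CHIR minus DMSO, Chac1 (-0.43), Trib3 (-0.20) and Atf3 (-0.14), where 20.8% of all genes were called, and none passed in PD03 minus DMSO. The Trib3 call was lost without CHIR replicate 2 (adjusted p = 0.0715) or DMSO replicate 3 (0.0511). The Atf3 call was lost under most settings tried, with adjusted p up to 0.204.

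Of 12 other measured Bcl2 family genes, 1 rose in CHIR minus DMSO, 3 rose in PD03 minus DMSO and 1 rose in 2i minus DMSO, and none fell in these comparisons, where 20.8%, 16.8% and 25.5% of all genes were called. In 2iLIF minus DMSO, where 34.7% of all genes were called, 1 rose and 2 fell, Bok (-0.27), a Bax-like family member, and Bcl2l13 (-0.11). Neither fall was called without 2iLIF replicate 3, and 1 of them without 2iLIF replicate 1, 2iLIF replicate 2 or any DMSO replicate. Bcl2l14, which encodes the family member Bcl-G, was called in all: it rose by 0.28 in CHIR minus DMSO, by 0.68 in PD03 minus DMSO and by 0.79 in 2i minus DMSO, and by 0.98 in 2iLIF minus DMSO. Its call in CHIR minus DMSO was lost without CHIR replicate 2 (limma adjusted p = 0.163), DMSO replicate 2 (0.145) or DMSO replicate 3 (0.0812). Bnip3 and Bnip3l, which encode mitochondrial proteins known for mitophagy, rose in PD03 minus DMSO by 0.22 and 0.11. The Bnip3 call was lost without PD03 replicate 3 (0.0890) or DMSO replicate 2 (0.0539), and the Bnip3l call under most settings tried, with adjusted p up to 0.282.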

How the data were processed

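Per the submitters' processing notes, the authors summarised the arrays with RMA, and the deposited table holds log2 values; no version of RMA is given in the sources used here. RMA includes quantile normalization, so a shift common to most genes would be hidden, and it compresses differences of weak signals. Total RNA was labelled with whole-transcript kits, per the labels' protocols.

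Values of the 34760 probe sets ran from 3.74 to 13.99. The platform annotation gave exactly 1 symbol to 21640 of them, several to 1321, and 11799 were unnamed here. The probe set with the highest mean stood for each of 19937 genes. The 5 group means were estimated over all 15 arrays by lmFit and eBayes of limma 3.58.1 in R 4.3.3, with 10 residual degrees of freedom; the median standard error of a difference was 0.0509, and the number of arrays limits the precision. Tests are two-sided, adjusted over all genes of a comparison. The procedure was tested on simulated data. No filter on level and no detection calls were used, so low values may be background.

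The members and the 8 further gene lists (other Bcl2 family, caspases, inhibitors of apoptosis, death receptors, p53, FoxO, integrated stress response, protein turnover) were chosen with earlier results of these data known. Named were all members, up to 3 called genes of each list by size in a comparison, the 3 genes most like each of the 3 members with the widest range, and markers; some genes that this rule gives are left out. CHIR minus PD03 was added after the values were seen. Promoter sequences are RefSeq's (GRCm38.p6), matched by symbol for 8 members. Windows of members on chromosome 18, where Pmaip1 lies, were left out. Alternatives covered scaling, level filter, probe set choice, fit, minimum fold, a replicate block and leaving out each array.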

Additional observations from a re-analysis of the deposited data

Results flagged for a closer look

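No member of the family differed between the inhibitor contexts past the threshold, that is, in the interaction (2i minus PD03) minus (CHIR minus DMSO). Among the 75 other listed apoptosis and pathway genes measured, 4 did, by limma's test of that interaction, against 2.04% of all genes. Tnfrsf1a, a TNF receptor gene, had an interaction of 0.45 ± 0.07 (adjusted p = 0.00187), and Gadd45a, a stress-response gene, 0.34 ± 0.08 (adjusted p = 0.0423). Birc3, an inhibitor of apoptosis gene, had -0.31 ± 0.07 (adjusted p = 0.0365) and Cited2, a reported FoxO target, -0.34 ± 0.08 (adjusted p = 0.0365). The calls of Gadd45a, Birc3 and Cited2 were each lost under several settings, with adjusted p of up to 0.115, 0.0960 and 0.102 respectively, and the call of Tnfrsf1a was lost under none other than the 2-fold minimum. The group means of Tnfrsf1a (6.65 to 7.57) and Birc3 (7.43 to 7.75) lie within the range of the fibroblast marker reads, so part of these signals may be background. Groups of 3 arrays were not screened for outlying arrays.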

How the results depend on the processing

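The precision is that of 3 arrays per group, and members whose differences were near 0.15 (Mcl1, Bbc3, Bcl2l1, Bak1) sat close to the threshold. Under the other settings apart from the 2-fold minimum, all calls of Bcl2l11 kept their direction and side of the threshold, as did those of Pmaip1 outside 2iLIF minus 2i, those of Bmf outside 2iLIF minus 2i and those of Bid in CHIR minus DMSO, 2i minus DMSO, 2i minus PD03, 2iLIF minus DMSO and CHIR minus PD03; no member's call reversed. Leaving out each array gave 3 to 5 members in CHIR minus DMSO, 0 to 1 in the interaction and 1 to 4 in 2iLIF minus 2i, and 255 to 437 genes in the interaction over all genes. Centring each array on its median gave 3 members in CHIR minus DMSO. Fitting only the groups compared gave 1 member in the interaction (Pmaip1) and 1 in 2iLIF minus 2i. Testing all probe sets gave 249 in the interaction. With a 2-fold minimum the members past the threshold numbered 0 in CHIR minus DMSO, 1 in PD03 minus DMSO, 1 in 2i minus DMSO, 0 in 2i minus CHIR, 0 in 2i minus PD03, 0 in 2iLIF minus 2i, 2 in 2iLIF minus DMSO and 1 in CHIR minus PD03, and the genes 92, 76, 180, 30, 63, 42, 401 and 139 in the same order, with 14 in the interaction; that rule leaves fewer genes by construction. For the other changes the cause was not tested.

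Replicate numbers did not pair the arrays: of 30 same-numbered pairs, 10 had deviations correlated above 0.1 (range -0.364 to 0.341), and 4 of 15 arrays matched their own number best. With the replicate block, Mcl1 in 2i minus DMSO no longer passed (limma adjusted p = 0.0512), while Bid passed in PD03 minus DMSO (0.0379) and in 2iLIF minus 2i (0.0301).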

Other observations

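The other listed apoptosis genes were called in numbers that differed between comparisons. In CHIR minus DMSO, where 20.8% of all genes were called, 1 of 11 apoptosome, caspase and mitochondrial death factor genes fell (Casp6, an executioner caspase, by 0.28). In PD03 minus DMSO, where 16.8% of all genes were called, 1 fell (Htra2, a mitochondrial protease, by 0.27) and 1 rose, a call lost under most settings tried. In 2iLIF minus DMSO, where 34.7% of all genes were called, 3 rose and 3 fell, among them Casp6 (-0.38) and Casp9 (0.15), the initiator caspase of the apoptosome, but 2 rose and 1 fell without 2iLIF replicate 2, DMSO replicate 2 or DMSO replicate 3. None passed in 2iLIF minus 2i, and 1 rose without 2i replicate 3. Of 5 inhibitors of apoptosis, 2 rose in PD03 minus DMSO, Birc3 by 0.32 and Birc5 (survivin) by 0.20. In 2i minus PD03, where 19.5% of all genes were called, Xiap (-0.26), Birc3 (-0.18) and Birc5 (-0.12) fell, of which Xiap alone was called without 2i replicate 2, PD03 replicate 1 or PD03 replicate 2. In CHIR minus PD03 3 of the 5 fell, where 25.8% of all genes were called. In 2iLIF minus DMSO 2 of the 5 rose, where 34.7% of all genes were called. Of 8 death receptor and adaptor genes, Tnfrsf1a fell by 0.48 in CHIR minus DMSO and rose by 0.60 in 2iLIF minus 2i, where 12.2% of all genes were called. In 2iLIF minus DMSO, where 34.7% of all genes were called, 3 of the 8 rose and 1 fell. Tnfrsf1a rose by 0.44, Casp8, the caspase that cleaves Bid, by 0.35 and Tradd by 0.29. Cflar, an inhibitor of caspase-8 activation, fell by 0.46. By group means, Birc3, Tnfrsf1a, Casp8 and Cflar lie within the range of the fibroblast marker reads, so part of these signals may be background.

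Of 8 genes known to regulate the turnover of the Mcl1 and Bim proteins, 2 rose and 2 fell in CHIR minus DMSO. In that comparison 20.8% of all genes were called. Of the 8, 1 rose and 1 fell without CHIR replicate 2, CHIR replicate 3, DMSO replicate 2 or DMSO replicate 3. None passed in PD03 minus DMSO, where 16.8% of all genes were called, and 1 rose without DMSO replicate 1. In 2iLIF minus DMSO, where 34.7% of all genes were called, 5 fell and none rose; 3 fell without 2iLIF replicate 2, 2iLIF replicate 3 or DMSO replicate 2, and 2 with arrays centred on their median. Fbxw7, a ubiquitin ligase subunit gene that targets Mcl1, rose by 0.20 in CHIR minus DMSO, and Dynll2, the dynein light chain gene whose product binds Bmf, fell by 0.24. The Fbxw7 call was lost with the mean over its probe sets (limma adjusted p = 0.0507). The arrays measured transcripts and gave no level of the proteins.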
